A study of Mus musculus with 4 samples.

Results

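Primary mouse cardiac fibroblasts carried mRNA for all 4 Notch receptors, the ligand gene Jag1 and the target gene Hes1, and the make-up of this set differed between vehicle and TGFbeta. Notch3 was the most abundant receptor with vehicle and Notch4 with TGFbeta. The set described here holds 10 genes of the Notch pathway out of 33641 gene symbols: the receptors Notch1, Notch2, Notch3 and Notch4, the ligand genes Jag1 and Dner, the regulator Dtx4, and the target genes Hes1, Hey1 and Heyl. They were listed by symbol and selected on their levels in these same libraries, vehicle against TGFbeta. Their differences between treatments are therefore given as a description, without a test.

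Notch receptors are single-pass membrane proteins that are switched on by ligands of the Jagged and Delta families on a neighbouring cell. Ligand binding exposes the receptor to an ADAM protease and then to gamma-secretase, which frees its intracellular domain. That domain enters the nucleus, joins the DNA-binding protein RBPJ and a Mastermind coactivator, and switches on genes of the Hes and Hey families, which encode transcriptional repressors. In blood vessels Notch4 is known as a receptor of endothelial cells and Notch3 as a receptor of pericytes and smooth muscle, which are together called mural cells.

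The cells came from wild-type C57BL/6J mice, 12 weeks old, and were cultured to 80% confluency. A pair of libraries came from cells with vehicle and another pair from cells with 10 ng/ml TGFbeta, a growth factor that drives fibroblasts towards contractile myofibroblasts. Both groups had also received 4-thiouridine (0.1 M per the labels) at 20 and 4 h ahead of irradiation with 368 nm light (200000 uJ per square centimetre), which links the labelled RNA to proteins that hold it. The series text speaks of RNA recovered with HuR, an RNA-binding protein, whereas the sample labels speak of total RNA; the sources used here do not resolve this, and no input library was analysed. The labels do not say whether replicates are separate cultures or animals, nor how long TGFbeta was present, so any p measures only the spread between these libraries.

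Levels are given as TPM, the share of all transcripts that a gene makes up, which is scaled by transcript length and so allows genes to be compared with each other but keeps no read depth. Each library sums to 1000000 TPM and held between 20945 and 21671 genes above 0. Levels were put on the scale of log2(TPM + 1), which understates the change of low genes, and a log2 difference below is TGFbeta less vehicle on that scale, with its standard error (SE) from a limma fit over 15815 genes whose mean was at least 1 TPM. The median log2 difference of those genes was -0.13, and a member near this value moved no more than the typical gene. All 10 members were in the fit, and their median was -0.17 (range -1.99 to 2.73). The fibroblast markers Col1a1, Col1a2, Dcn, Lum, Vim, Pdgfra, Tcf21, Ddr2 and Thy1 were all present and summed to between 11040 and 14280 TPM per library. Presence alone cannot set fibroblasts apart from other cells that express these genes. Of these 9, 2 fell in the limma test, Pdgfra from a mean of 154 to 56.6 TPM and Tcf21 from 582 to 269 TPM (limma adjusted p = 0.0106 and 0.0148), though neither passed without either vehicle library, nor Pdgfra without the first and Tcf21 without the second TGFbeta library (limma adjusted p from 0.0513 to 0.154). Col1a1, the most abundant of them by the mean of all 4 libraries (Vim was higher with vehicle), had 3148 and 2392 TPM with vehicle and 6221 and 4272 TPM with TGFbeta (limma adjusted p = 0.0958, and 0.0485 among genes of at least 5 TPM).

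The 2 receptor genes with the largest opposite differences both lie on chromosome 17. Notch4 spans 34564268 to 34588503 on the plus strand (GRCm38, GENCODE M21) and Notch3 spans 32120820 to 32166852 on the minus strand. The 250 bases in front of their RefSeq start sites are shown because these are the promoters of the receptors that differed most (RefSeq, GRCm38.p6; 5′ to 3′ along the gene). Capitals mark CAGAC or its complement GTCTG, the short sequence that Smad proteins, which carry the TGFbeta signal, can bind.
Notch4, chr17:34564045-34564294, plus strand: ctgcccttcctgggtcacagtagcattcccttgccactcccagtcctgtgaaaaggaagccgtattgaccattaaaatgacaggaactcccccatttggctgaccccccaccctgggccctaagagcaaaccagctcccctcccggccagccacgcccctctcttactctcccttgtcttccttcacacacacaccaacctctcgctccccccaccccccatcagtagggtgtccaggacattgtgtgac
Notch3, chr17:32166891-32167140, minus strand: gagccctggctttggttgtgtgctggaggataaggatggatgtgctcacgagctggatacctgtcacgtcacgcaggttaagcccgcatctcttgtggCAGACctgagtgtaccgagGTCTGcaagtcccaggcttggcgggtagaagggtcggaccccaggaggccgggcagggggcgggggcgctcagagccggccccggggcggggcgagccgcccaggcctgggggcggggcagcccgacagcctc
Notch3 held 2 such matches, 152 and 133 bases before the start in opposite orientation, and Notch4 held 0. Jag1 held 1, and Notch1, Notch2 and Dner held 0. Of 32851 RefSeq promoters of this length, 42.2% held at least 1 match on either strand, and the share with 2 was not counted. The RBPJ core TGGGAA (held by 21.6% of promoters) and the AP-1 motif TGANTCA (6.7%) were found on neither strand in the 6 member promoters that could be matched, those of Notch1, Notch2, Notch3, Notch4, Jag1 and Dner. The 2 matches in Notch3 do not overlap, and a match or its lack describes the letters in this window only.

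HuR is known to bind U-rich and AU-rich stretches, mostly in the tails of mRNAs that follow the coding part. The AUUUA pentamer was therefore counted in these tails (ATTTA in DNA letters; the sense strand only, overlapping matches counted; 1 GENCODE M21 transcript per gene). Across 13221 tested genes with such a tail of at least 50 bases the median was 1.28 pentamers per kb, and 67.7% of genes had at least 1. The stretches of 25 bases richest in pentamers are shown for the 3 members with most pentamers per kb and for both receptors that differed, with each pentamer in capitals.
Jag1, bases 337 to 361 after the stop codon: tagttttATTTAtATTTAttgactc
Dner, bases 808 to 832 after the stop codon: gagtgcacATTTATTTAtacccaag
Notch1, bases 147 to 171 after the stop codon: tttttagtATTTATTTAtgtacttt
Notch3, bases 155 to 179 after the stop codon: gtcttcctttATTTAtaatgggtag
Notch4, bases 306 to 330 after the stop codon: gctggcaactATTTAttaagcacct
Jag1 had 10 pentamers in 1568 bases, or 6.38 per kb, more than 96.5% of those genes. Dner had 3 in 925 bases (3.24 per kb), Notch1 4 in 1628 (2.46 per kb), Notch3 2 in 1000 and Notch4 1 in 518. Notch2 had 4 in 2917 bases, Dtx4 2 in 3138 and Hey1 1 in 1137, while Hes1 and Heyl had 0 in 368 and 3245 bases. Runs of 5 U (TTTTT, overlapping) were also most dense in Jag1, at 32.5 per kb against a median of 3.72, followed by Hes1 at 24.5 per kb, and Notch4 had 0.

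Among the receptors, Notch4 had 20.8 and 15.8 TPM with vehicle and 151 and 106 TPM with TGFbeta. The groups did not overlap, and the lower TGFbeta library stood above both vehicle libraries by a wide margin. The means were 18.3 ± 3.48 and 128 ± 31.6 TPM (SD, n = 2 each), a ratio of 7.01, and the log2 difference was 2.73 (SE 0.22). Of all tested genes 99.8% had a smaller absolute difference. In bulk RNA of this kind, a change in the number of cells of a type and a change in RNA per cell cannot be told apart. The pseudogene Gm20462 overlaps Notch4 on the opposite strand and was listed at 0 in both vehicle libraries and at 2.22 and 0.890 TPM with TGFbeta. Whether the counting used strand is not given, so reads of the overlapping part cannot be told apart.

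Notch3 went the other way, with 74.0 and 83.9 TPM with vehicle and 21.1 and 17.4 TPM with TGFbeta. Its vehicle libraries both lay above its TGFbeta libraries. The vehicle mean was 79.0 ± 7.04 and the TGFbeta mean 19.2 ± 2.66 TPM (SD, n = 2 each), 4.10 times as high with vehicle, with a log2 difference of -1.99 (SE 0.16). The Notch3 difference was larger in size than that of 99.3% of tested genes.

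Notch1 (chromosome 2, 26457903 to 26516663, minus strand) and Notch2 (chromosome 3, 98013527 to 98150361, plus strand) are the broadly expressed receptors. Notch1 had 46.1 and 40.9 TPM with vehicle and 37.5 and 38.1 TPM with TGFbeta. Both TGFbeta libraries lay just below both vehicle libraries, but the log2 difference of -0.20 (SE 0.14) was only 0.07 below the median of all tested genes. Notch2 had 34.0 and 33.6 TPM with vehicle and 35.3 and 26.7 TPM with TGFbeta, so its groups overlapped (log2 difference -0.14, SE 0.17). The sign of so small a difference was not stable: it was 0.02 after median scaling and 0.06 without the second TGFbeta library.

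Summed over the 4 receptors, the level was 175 and 174 TPM with vehicle and 245 and 188 TPM with TGFbeta. Within that sum Notch3 took 42.3% and 48.2% with vehicle and 8.64% and 9.23% with TGFbeta. Notch4 took 11.9% and 9.08% with vehicle and 61.6% and 56.3% with TGFbeta, more than the other receptors together in both TGFbeta libraries. The ratio of Notch4 to Notch3 was 0.281 and 0.189 with vehicle and 7.13 and 6.10 with TGFbeta.

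**Figure D1:**
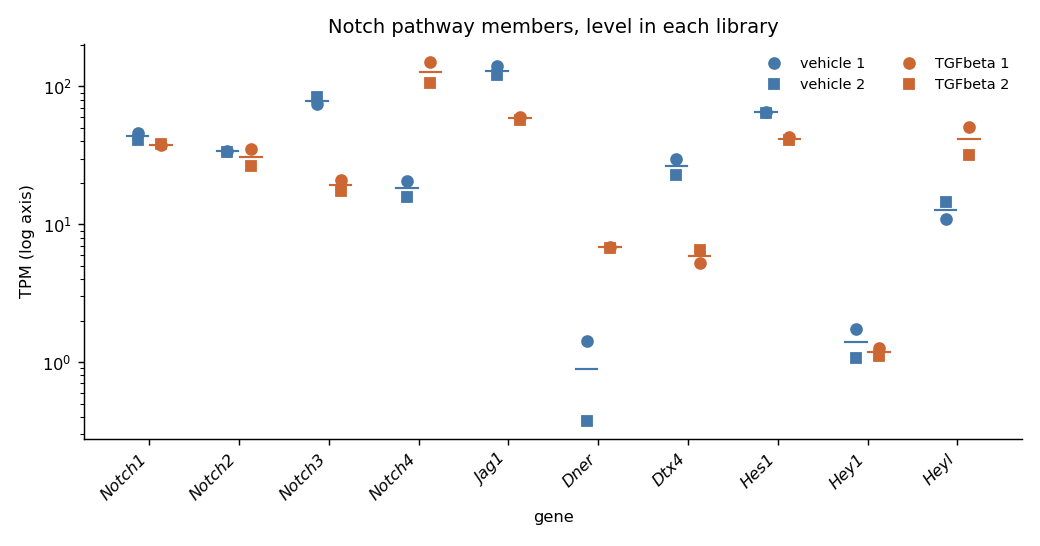
Level of each of the 10 members in each library, in TPM on a log axis, with 1 point per library and a short line at the group mean. Notch4, Dner and Heyl lie higher in both TGFbeta libraries, Notch3, Jag1, Dtx4 and Hes1 lie clearly lower, Notch1 lies slightly lower, and the groups overlap for Notch2 and Hey1.

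Of the ligand genes, Jag1 encodes Jagged1, a canonical ligand (chromosome 2, 137081456 to 137116644, minus strand). It was the most abundant member with vehicle, at 140 and 121 TPM, and had 60.2 and 57.2 TPM with TGFbeta. All TGFbeta values were below all vehicle values. The means were 131 ± 13.6 and 58.7 ± 2.17 TPM (SD, n = 2 each), 2.22 times as high with vehicle, and the log2 difference was -1.14 (SE 0.14). Among the 5 canonical ligand genes Jag1 made up 95.0% to 97.5% of the summed TPM in every library, so the ligand sum went with it, from 144 and 125 TPM to 62.8 and 60.2 TPM. The others, Jag2, Dll1, Dll3 and Dll4, lay between 0.0903 and 1.33 TPM in every library.

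Dner encodes a membrane protein with EGF-like repeats that is best known in neurons, where it is described as a non-canonical Notch ligand (chromosome 1, 84369839 to 84696221, minus strand). It had 1.42 and 0.376 TPM with vehicle and 6.90 and 6.74 TPM with TGFbeta. The groups did not overlap, although the vehicle libraries differed more from each other than the TGFbeta libraries did. The ratio of means was 7.58, from 0.899 ± 0.740 to 6.82 ± 0.114 TPM (SD, n = 2 each). For so low a gene the log2 difference depends on the value added before taking logs: it was 2.10 (SE 0.31) with 1 TPM added, 3.02 with 0.1 and 1.01 with 5.

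Dtx4 encodes a deltex-type E3 ubiquitin ligase that acts on Notch receptors (chromosome 19, 12466338 to 12501454, minus strand). It had 29.7 and 22.9 TPM with vehicle and 5.28 and 6.52 TPM with TGFbeta, without overlap. The vehicle mean of 26.3 ± 4.83 was 4.46 times the TGFbeta mean of 5.90 ± 0.880 TPM (SD, n = 2 each), and the log2 difference was -1.98 (SE 0.20). Dtx4 made up 9.81% and 6.62% of the TPM of the 5 deltex genes with vehicle and 2.79% and 3.44% with TGFbeta. Dtx3 made up most of that sum, between 78.8% and 83.0% in every library.

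The target genes did not move together. Hes1 encodes the classical Notch-induced repressor (chromosome 16, 30064384 to 30067796, plus strand) and had 64.9 and 64.6 TPM with vehicle and 42.6 and 41.1 TPM with TGFbeta. Its replicates lay close together, and the vehicle level was 1.55 times the TGFbeta level (log2 difference -0.62, SE 0.13). Heyl (chromosome 4, 123233556 to 123249875, plus strand), a family member known from vascular smooth muscle, had 10.9 and 14.6 TPM with vehicle and 51.0 and 31.8 TPM with TGFbeta. Those groups did not overlap. The Heyl means were 12.7 ± 2.63 and 41.4 ± 13.6 TPM (SD, n = 2 each), a ratio of 3.26, with a log2 difference of 1.60 (SE 0.26). In Heyl the first TGFbeta library was higher than the second, as it was in every member but Notch1 and Dtx4.

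Hey1 (chromosome 3, 8663359 to 8667256, minus strand), a target of Notch and of bone morphogenetic proteins, was low throughout, with 1.73 and 1.08 TPM with vehicle and 1.26 and 1.11 TPM with TGFbeta. The groups overlapped, and the log2 difference of -0.12 (SE 0.25) was close to the median of all tested genes and went to 0.03 after median scaling. Over 9 Hes and Hey genes the summed level was 116 and 120 TPM with vehicle and 129 and 110 TPM with TGFbeta. Hes1 took 55.9% and 53.7% of it with vehicle and 33.0% and 37.3% with TGFbeta. Heyl took 9.35% and 12.1% with vehicle and 39.5% and 28.9% with TGFbeta. Hes6 took between 18.6% and 23.1%, and Hes5, a target best known from neural progenitors, was listed at 0 in every library.

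**Figure D2:**
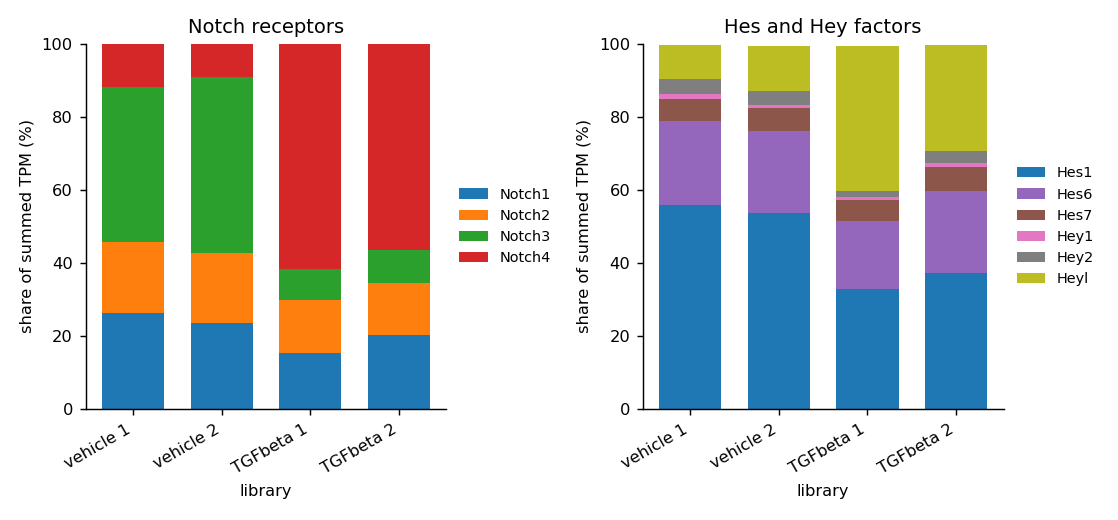
Share of the summed TPM that each gene took in each library, in percent, for the 4 Notch receptors (left) and the Hes and Hey genes (right; genes under 1% in every library are not drawn). Notch4 fills 61.6% and 56.3% of the receptor bars with TGFbeta against 11.9% and 9.08% with vehicle, and Heyl fills a larger part of the right-hand bars with TGFbeta.

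Ordered by mean TPM, the members with vehicle ran Jag1, Notch3, Hes1, Notch1, Notch2, Dtx4, Notch4, Heyl, Hey1 and Dner. Only Hey1 and Dner had overlapping values among neighbours in that order. With TGFbeta the order was Notch4, Jag1, Hes1, Heyl, Notch1, Notch2, Notch3, Dner, Dtx4 and Hey1, and Heyl overlapped both Hes1 and Notch1. Notch4 thus went from the seventh place to the first, and Notch3 from the second to the seventh.

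By the limma threshold (adjusted p under 0.05 over all tested genes), 3 of the 10 members were called higher and 4 lower, where 1.54% of all tested genes were called higher and 4.38% lower. Both TGFbeta libraries stood above both vehicle libraries for 3 members and below for 5, where 15.5% and 39.8% of all tested genes did so. The members were selected on this contrast, so nothing is read from these counts. Hes1 was not called with 0.1 TPM added, after quantile normalization or median scaling, without a trend or with the replicate number as a block, which left 3 called lower. No member was called when every gene above 0 was tested or without either vehicle library, and 2 and 4 members were called without the first and the second TGFbeta library. After median scaling 421 tested genes were called higher and 401 lower, against 244 and 692 as deposited.

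A wider list of 59 Notch pathway genes was tested in the same fit. It was drawn up by pathway role with earlier results of these data known, and it leaves out the 10 members, which were selected on this contrast, so its counts do not stand for the pathway as a whole. Of these, 51 passed the filter of a mean of 1 TPM, 0 rose and 3 fell by limma, where 1.54% of all tested genes rose and 4.38% fell. An unadjusted limma p under 0.05 was reached by 9 of the 51 and by 3873 of all 15815 tested genes. Their median log2 difference was -0.16, against -0.13 for all tested genes. The genes that fell were the corepressor Tle2, the acetyltransferase Kat2b and the deltex gene Dtx3.

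Tle2 encodes a Groucho-type corepressor, a partner through which Hes and Hey proteins repress their targets. It had 165 and 190 TPM with vehicle and 33.5 and 42.5 TPM with TGFbeta. The groups were far apart, 178 ± 17.3 against 38.0 ± 6.35 TPM (SD, n = 2 each), and the gene fell by 2.20 on the log2 scale (SE 0.17, limma adjusted p = 0.0059). Its family members Tle1, Tle3 and Tle4 had log2 differences of 0.26, -0.33 and -0.39, none of which passed the test (limma adjusted p = 0.368, 0.244 and 0.292). In both TGFbeta libraries Tle1 was higher, and Tle3 and Tle4 were lower, than in both vehicle libraries. Among all tested genes 15.5% were higher and 39.8% lower in this way. Tle2 took 65.5% and 67.5% of the summed TPM of the 4 Groucho genes with vehicle and 28.9% and 37.0% with TGFbeta. Among the other corepressors L3mbtl3, which binds RBPJ, had the next largest difference at 0.46 (limma adjusted p = 0.146). The Tle2 call was lost without either vehicle library (limma adjusted p up to 0.0933).

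Of the 9 genes of the activator complex, 1 fell and 0 rose. Kat2b, a histone acetyltransferase, had 38.5 and 30.4 TPM with vehicle and 14.7 and 18.9 TPM with TGFbeta, and fell by 0.99 (SE 0.20, limma adjusted p = 0.0436). Rbpj, the DNA-binding partner of all Notch receptors, had 53.9 and 49.8 TPM with vehicle and 35.5 and 34.7 TPM with TGFbeta. The Rbpj libraries did not overlap, but its log2 difference of -0.55 did not pass (SE 0.13, limma adjusted p = 0.0697), although it did among genes of at least 5 TPM (limma adjusted p = 0.0459). The Mastermind genes Maml1, Maml2 and Maml3 had -0.01, -0.34 and -0.20.

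Among 8 genes of receptor trafficking and turnover, 1 fell and 0 rose. Dtx3 had 239 and 286 TPM with vehicle and 153 and 157 TPM with TGFbeta, and fell by 0.75 (SE 0.14, limma adjusted p = 0.0424). Fbxw7, which encodes the ubiquitin ligase subunit that marks the Notch intracellular domain for degradation, had 10.4 and 9.50 TPM with vehicle and 16.3 and 16.2 TPM with TGFbeta. Its log2 difference of 0.65 did not pass (SE 0.16, limma adjusted p = 0.0686), although it did after median scaling, after quantile normalization and among genes of at least 5 TPM. The calls of Dtx3 and Kat2b each held under only 5 of 13 alternatives. Both were lost with the replicate number as a block, without a trend, with every gene above 0 and without any 1 library. Dtx3 was also lost after median scaling and Kat2b after quantile normalization.

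The remaining steps of the pathway held no called gene. Of 10 genes of receptor cleavage 0 were called by limma (1 at an unadjusted p under 0.05), with log2 differences from -0.44 for the gamma-secretase gene Psen2 to 0.37 for Furin, the convertase that cuts the receptor during its maturation. Of 5 glycosylation genes 0 were called (0 unadjusted), and the largest differences were those of the fringe genes Lfng at -0.41 and Rfng at -0.34. Of 3 tested genes of ligand endocytosis 0 were called (1 unadjusted): Neurl1b had 4.38 and 4.76 TPM with vehicle and 2.17 and 1.98 TPM with TGFbeta (limma adjusted p = 0.0617, and 0.0497 without a trend and 0.0466 with the robust form), and Mib1 had a log2 difference of 0.36. Of the 6 other ligand genes 3 were tested and 0 called (0 unadjusted), with Dlk1 at -0.57 and Dll4 at -0.13. Of the 7 other target genes 3 were tested and 0 called (0 unadjusted), with Hey2 at -0.55 and Hes6 at -0.14. Nrarp, a direct feedback target of Notch, was below the filter, at 0.441 and 0.388 TPM with vehicle and 0.179 and 0.142 TPM with TGFbeta.

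**Figure D3:**
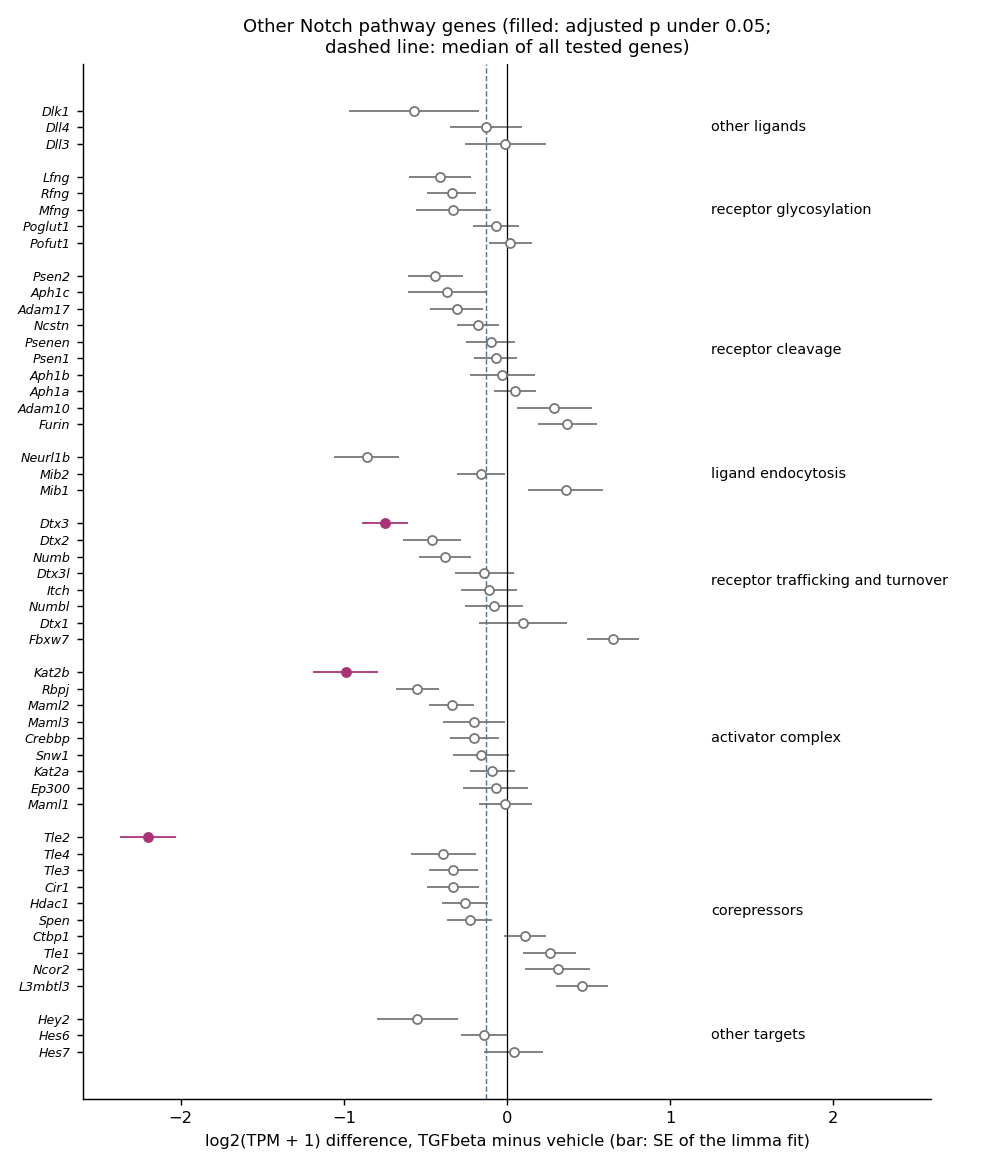
Difference of log2(TPM + 1), TGFbeta minus vehicle, for the 51 tested pathway genes outside the set, grouped by step, with bars for the SE of the limma fit. Tle2, Kat2b and Dtx3 are filled as the genes with an adjusted p under 0.05, and most other points lie around the dashed line at -0.13, the median of all tested genes.

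Since Notch4 marks endothelial cells elsewhere, endothelial markers were read beside it. Their summed level over 14 genes was 93.7 and 102 TPM with vehicle and 79.7 and 74.8 TPM with TGFbeta. Egfl7 and Tek took the largest parts of that sum. Egfl7 had 34.0 and 34.3 TPM with vehicle and 22.5 and 17.0 TPM with TGFbeta, the largest fall in TPM among the 14. It was not the only one. Of the 12 tested markers, 7 lay lower and 1 higher in both TGFbeta libraries than in both vehicle libraries. Among all tested genes 39.8% lay lower and 15.5% higher in this way. Of the 12 that were tested 1 rose and 0 fell: Erg, which encodes an endothelial transcription factor, rose from 2.23 and 1.76 TPM to 7.56 and 8.21 TPM (log2 difference 1.57, SE 0.20, limma adjusted p = 0.0163). The defining junction gene Cdh5 had 6.36 and 7.29 TPM with vehicle and 4.17 and 4.45 TPM with TGFbeta, and Pecam1 had 5.97 and 7.35 TPM with vehicle and 5.93 and 6.07 TPM with TGFbeta. None of the 14 was listed at 0 in every library. The Erg call was lost without any 1 library (limma adjusted p from 0.0709 to 0.143). Egfl7, the most abundant of them, had a log2 difference of -0.78 (limma adjusted p = 0.0599, and 0.0282 among genes of at least 5 TPM and 0.0438 with the robust form).

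Beside Notch3, 8 of 10 mural cell markers were tested, of which 1 rose and 1 fell. Mcam rose from 15.2 and 13.6 TPM to 29.3 and 29.4 TPM (log2 difference 0.98, SE 0.15, limma adjusted p = 0.0242). Steap4 fell from 11.3 and 7.71 TPM to 0.930 and 1.36 TPM (log2 difference -2.28, SE 0.25, limma adjusted p = 0.0116). The contractile mural gene Myh11 had 4.52 and 3.92 TPM with vehicle and 4.62 and 4.92 TPM with TGFbeta. The pericyte gene Rgs5 had 2.26 and 2.47 TPM with vehicle and 1.95 and 13.5 TPM with TGFbeta, with 1 library apart. Ndufa4l2, the most abundant of them by the mean of all 4 libraries (Mcam was higher with TGFbeta), had 25.5 and 53.3 TPM with vehicle and 16.5 and 23.5 TPM with TGFbeta (limma adjusted p = 0.198). The Mcam call was lost without any 1 library, and that of Steap4 without either vehicle library or the first TGFbeta library (limma adjusted p from 0.0606 to 0.181). The summed level of the 10 markers was 76.7 and 98.5 TPM with vehicle and 82.0 and 94.5 TPM with TGFbeta, so the groups overlapped. That overlap rested on Ndufa4l2, which took a large part of the sum and was lower in both TGFbeta libraries. Of the 8 tested markers, 3 lay higher and 3 lower in both TGFbeta libraries than in both vehicle libraries. Among all tested genes, 15.5% lay higher and 39.8% lower in this way. The part that other cells had in the levels of Notch3 and Notch4 was not tested. Leukocyte markers, with Lyz2 the most abundant, summed to 76.4 and 94.0 TPM with vehicle and 61.1 and 66.3 TPM with TGFbeta. Cardiomyocyte markers summed to 58.1 and 95.7 TPM with vehicle and 45.9 and 45.3 TPM with TGFbeta, and most of that was Tnnt2. Of these 7 markers, 4 lay below the filter of a mean of 1 TPM. Both sums were thus lower in both TGFbeta libraries, but each was mostly 1 gene, Lyz2 or Tnnt2. Of the 7 leukocyte and 3 cardiomyocyte markers tested, 3 and 1 lay lower and 0 higher in both TGFbeta libraries than in both vehicle libraries. Among all tested genes 39.8% lay lower and 15.5% higher in this way. By limma 0 of these markers were called (2 and 1 at an unadjusted p under 0.05).

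**Figure D4:**
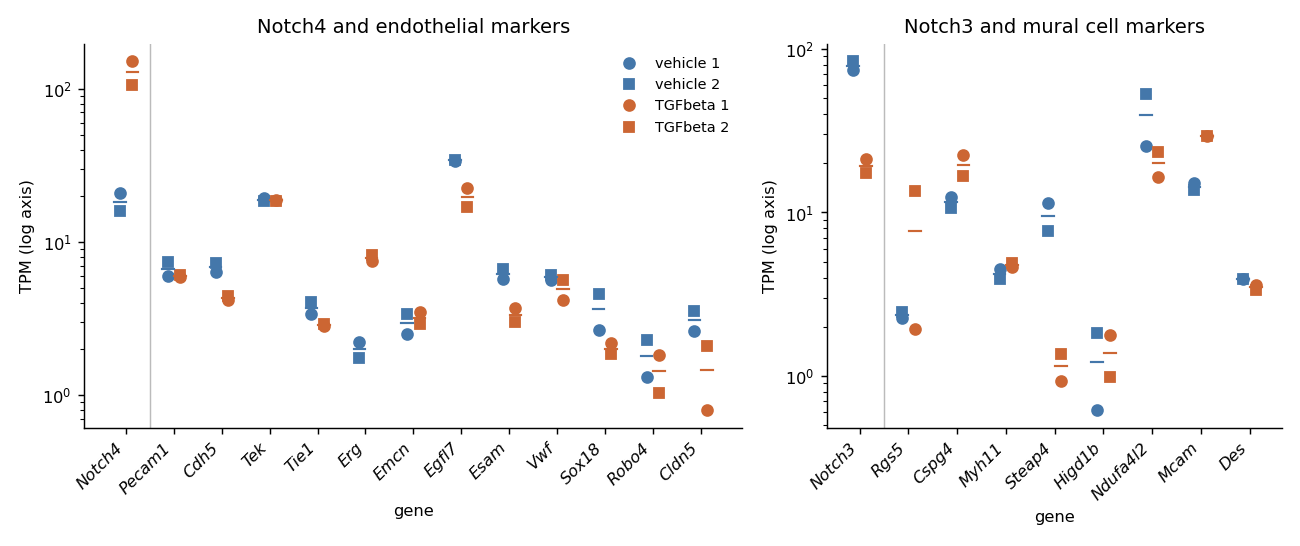
Level in each library, in TPM on log axes, of Notch4 beside the tested endothelial markers (left) and of Notch3 beside the tested mural cell markers (right), with 1 point per library and a short line at the group mean. On the left Erg lies higher in both TGFbeta libraries than in both vehicle libraries and 7 markers (Cdh5, Egfl7, Tie1, Esam, Vwf, Sox18 and Cldn5) lie lower. On the right 3 lie higher (Mcam, Cspg4 and Myh11) and 3 lower (Steap4, Ndufa4l2 and Des). Among all tested genes, 15.5% lie higher and 39.8% lower in this way.

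Genes with the pattern most like those of Notch4 and Notch3 were sought among 11462 other genes of at least 5 TPM, by the root mean square difference of log2(TPM + 1) profiles over the 4 libraries, each centred on its own mean. Acan, which encodes the proteoglycan aggrecan, came closest to Notch4 at 0.073, with 1.22 and 0.827 TPM with vehicle and 13.7 and 10.7 TPM with TGFbeta. Acan passed the filter of 5 TPM only through its TGFbeta libraries, and its vehicle levels were near the 1 TPM added before taking logs. Its place in this order therefore depends on the value added, and no other value was tried here. Wisp1, the gene in the title of the series, was also near (0.168) and had 25.3 and 22.0 TPM with vehicle and 153 and 141 TPM with TGFbeta. Closest to Notch3 were Cdkn1c, which encodes an inhibitor of cyclin-dependent kinases (0.041), the ectonucleotidase gene Entpd2 (0.044) and the gene model Gm5859 (0.071). Cdkn1c had 22.9 and 24.6 TPM with vehicle and 6.12 and 4.92 TPM with TGFbeta. These values describe likeness over 4 libraries that share their 2 treatments.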

How the data were processed

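RNA was sequenced from 4 libraries of mouse cardiac fibroblasts, 2 per treatment, and grouped by the titles in the labels. Per the file headers, the authors deposited TPM, 1 value for each of 33641 gene symbols per library. The aligner, quantifier, genome build, annotation and strand setting were not given in the sources used here, and without read depth there is no counting interval. Genes with a mean of at least 1 TPM (15815) were tested as log2(TPM + 1) with limma 3.58.1 in R 4.3.3 (lmFit, then eBayes with its trend option). The model held treatment alone, tests were two-sided, and p-values were adjusted by Benjamini-Hochberg across the 15815 genes. The threshold was an adjusted p of 0.05. An exact permutation test of 1 gene over 4 libraries cannot go below 0.333 and was not used. The script was tested on simulated data. Positions and transcripts come from GENCODE M21 (GRCm38) and promoters from RefSeq (GRCm38.p6), matched by symbol.

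The members, gene lists and marker lists were chosen with earlier results of these data known. Named were all members, the called genes of the other lists with the 2 largest differences per pathway list, the most abundant marker per marker list, and the 3 nearest patterns of the members with the largest rise and fall, of which 1 is not reported here. Other genes named (family members, Hes5, Nrarp, Gm20462, Cdh5, Pecam1, Myh11, Rgs5, Cspg4, the neighbours and the other markers in the plot of markers) were chosen after their values were seen, as were the promoter and mRNA tail motifs. The 13 alternatives covered the pseudocount, the filter, scaling, the eBayes form, the replicate block and each library left out.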

Additional observations from a re-analysis of the deposited data

How the results depend on the processing

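The differences of Notch1, Notch3, Notch4, Jag1, Dtx4, Hes1 and Heyl kept their sign under all 13 alternatives, and that of Dner under the 12 that tested it. Notch4 ranged from 2.48 to 2.99, Notch3 from -2.12 to -1.79, Heyl from 1.27 to 1.94 and Hes1 from -0.64 to -0.46. Notch2 kept its sign under 10 of 13 and Hey1 under 9 of 12. The members' median was -0.41 with a mean TPM of at least 5, where Dner and Hey1 are not tested.

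Of the pathway genes outside the set, 1 was called higher with a mean TPM of at least 5, after quantile normalization and after median scaling (Fbxw7 each time), and 0 lower when every gene above 0 was tested. Without 1 library, 0 to 1 of them were called lower, and 0 without either vehicle library. Among all tested genes, 0 higher and 0 lower were called with every gene above 0 (limma, 4348 at an unadjusted p under 0.05). Calls were 421 higher and 401 lower after median scaling, 401 lower after quantile normalization and 437 lower without a trend. Without 1 library they ran from 0 to 65 higher and from 0 to 138 lower, with 0 without either vehicle library. In these fits the spread came from the pair that was left, so the lone library is taken to vary as that pair did. The cause was not tested, except that fewer samples or more low genes are part of those settings.

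Same-numbered libraries did not deviate together (r = -0.0539 over tested genes). With 1 pair of libraries per treatment, this cannot show whether the numbers mark a pairing. With the replicate block 1 pathway gene outside the set, Tle2, and 445 of all tested genes were called lower.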

Other observations

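The genes next to the members along the chromosome were read beside them. Gpsm3 starts 1.3 kb past the end of Notch4 and had 26.7 and 36.0 TPM with vehicle and 27.7 and 27.9 TPM with TGFbeta, so its groups overlapped. The nearest listed protein-coding genes to Notch3 were Rrp1b, with 30.4 and 27.6 TPM with vehicle and 32.8 and 33.1 TPM with TGFbeta, and Ephx3, with 1.68 and 2.08 TPM with vehicle and 2.43 and 1.87 TPM with TGFbeta. Pid1, which lies 5.7 kb from Dner, had 87.3 and 87.6 TPM with vehicle and 108 and 108 TPM with TGFbeta. Mpeg1, a macrophage gene 1.1 kb from Dtx4, had 2.93 and 3.22 TPM with vehicle and 1.63 and 1.80 TPM with TGFbeta. Of 20 such neighbours, 7 lay higher and 3 lower in both TGFbeta libraries than in both vehicle libraries, where 15.5% and 39.8% of all tested genes did so. The neighbours were not filtered by level and some lay below a mean of 1 TPM, so these shares are not a like background and nothing is read from the counts.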
